A study of Drosophila melanogaster with 4 samples.

Results

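Glycogen and trehalose are the stored and the circulating forms of glucose in insects. The genes described here are the 9 that were listed by function for their synthesis, breakdown and uptake and for the phosphorylation of hexoses: Treh, Tps1, Tret1-1, Glyp, Glys, AGBE, UGP, Pgm1 and Hex-A. They were chosen by function and matched by symbol among 8806 rows of genes and transposable element families, with knockdown-minus-control fold changes of these same 4 libraries already known, and 8 had a row, while Tps1, the trehalose synthase gene, was not analysed here. Messenger RNA was measured by sequencing in BG3, an established Drosophila melanogaster cell line whose source was larval brain and nerve cord. Cells treated with double-stranded RNA against Cap-H2, a subunit of the chromosome-compacting complex condensin II, were compared with cells treated with double-stranded RNA against Brown, a gene of eye pigmentation that served as control. The labels give the genotypes as CapH2 Knockdown and WT, and each group held 2 libraries. All cells had 20 µg of double-stranded RNA for 30 min without serum and then 4 days of culture, and were otherwise grown with serum and insulin at 10 µg/mL. Both groups therefore come from 1 cell line kept with insulin, a hormone that promotes glycogen synthesis.

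Trehalose enters cells through transporters such as Tret1-1 and is split by trehalase, the product of Treh, into glucose. Glucose is phosphorylated by a hexokinase, Hex-A, and the glucose phosphate can go into glycolysis or, through phosphoglucomutase (Pgm1) and UDP-glucose pyrophosphorylase (UGP), into UDP-glucose. Glycogen synthase (Glys) and the branching enzyme (AGBE) build glycogen from UDP-glucose, and glycogen phosphorylase (Glyp) releases its glucose units again as glucose phosphate. In the fly, the fat body stores most glycogen and makes the trehalose of the blood, and in the brain glial cells take up trehalose and hand its products to neurons.

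The libraries held 21762964 to 21935781 reads on genes and element families in the knockdown and 21539511 to 21682729 in the control. Values are normalized reads, that is reads divided by the authors' size factor of the library. Cap-H2 itself had 543 and 555 normalized reads in the knockdown libraries, against 880 and 873 in the control libraries, so that 62.7% remained. Among all 7690 rows with a mean of at least 10 normalized reads, 30 passed an adjusted p of 0.05 in limma's moderated test, which is 0.39%, and 25 of them were higher in the knockdown (0.325%). The control libraries differed from each other (chi-square per degree of freedom 5.09) by more than control library 2 differed from either knockdown library (4.11 and 4.26), and control library 1 lay farthest from the knockdown (6.60 and 7.95). Separate cultures are not stated for the libraries of a group, so the spread behind each p-value is that between these samples and may be technical.

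The neuronal label was set against marker genes. Of the neuron markers, elav, an RNA-binding protein gene, had a mean of 558 normalized reads over the 4 libraries and Syx1A, a syntaxin, of 1792, while the synaptic genes nSyb and brp stood at 3.00 and 3.24. The hemocyte markers srp, a GATA factor, and crq, a scavenger receptor, had means of 6086 and 3166. Of the other hemocyte markers Pxn had 682, Hml 272 and NimC1 6.49, and He had no row. The glial markers moody and nrv2 had means of 5349 and 3384, against 81.6 for repo, the factor that defines glia. Gs2 had 104 and Eaat1 23.2, and alrm had no row. Of the 6 fat body markers 2 had a row, Apoltp with 1620 and apolpp with 25.0. The summed level of these 2 was 1534 to 1590 in the knockdown and 1725 to 1730 in the control, a sum carried by Apoltp, whose libraries were lower in the knockdown, while those of apolpp overlapped with means of 29.1 in the knockdown and 20.9 in the control. The summed levels of the measured hemocyte markers (5 of 6) were 9974 to 10081 in the knockdown and 10177 to 10616 in the control, and those of the glial markers (5 of 6) 8803 to 8829 in the knockdown and 8963 to 9173 in the control. Taken singly, srp, crq and NimC1 overlapped between the groups, as did moody, nrv2, repo and Gs2. Both knockdown libraries of Hml, Pxn and Eaat1 lay below both control libraries, as they did in 19.5% of all tested rows. The neuron markers (4 of 6) summed to 2407 to 2432 in the knockdown and 2254 to 2333 in the control. Both knockdown libraries of elav and Syx1A lay above both control libraries, as they did in 19.2% of all tested rows. Those of nSyb also lay above and those of brp below, but both genes averaged under 10 normalized reads and were not tested. The neuroblast markers (3 of 5) summed to 197 to 206 in the knockdown and 179 to 193 in the control. That sum was carried by insc, with a mean of 168, and insc, mira and dpn each overlapped. The muscle markers (3 of 5) overlapped. Of these genes, 0 of the 18 tested markers of any cell type passed limma's threshold (2 at an unadjusted p under 0.05, where 8.13% of all tested rows lay), 0 in edgeR and 0 of the 6 that DESeq2 gave an adjusted p. Their part in the results below was not tested.

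Treh and Glyp, genes of trehalose and of glycogen breakdown, were the members with higher RNA in the knockdown past limma's threshold. Treh stood at 120% of the control and Glyp at 113%. The genes of glycogen synthesis, of uptake and of hexose phosphorylation differed by between -5.31% and 5.75% and did not pass. Thus 2 of the 8 measured genes passed, both as higher, beside the 0.325% of all tested rows that passed as higher. The same 2 passed in the count models, where 0.299% of rows passed as higher in edgeR and 2.6% of the 1578 rows that DESeq2 gave an adjusted p in that model. They also passed without control library 1, where 0.611% of rows passed as higher, at log2 fold changes of 0.23 and 0.19. Treh and Glyp were known to have passed in this comparison when the list was drawn up, so these fold changes and calls are a description of the genes and are not independent evidence of a change in the pathway. In RNA from bulk cultures a change in the number of cells of a kind and a change in RNA per cell cannot be told apart.

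**Figure D1:**
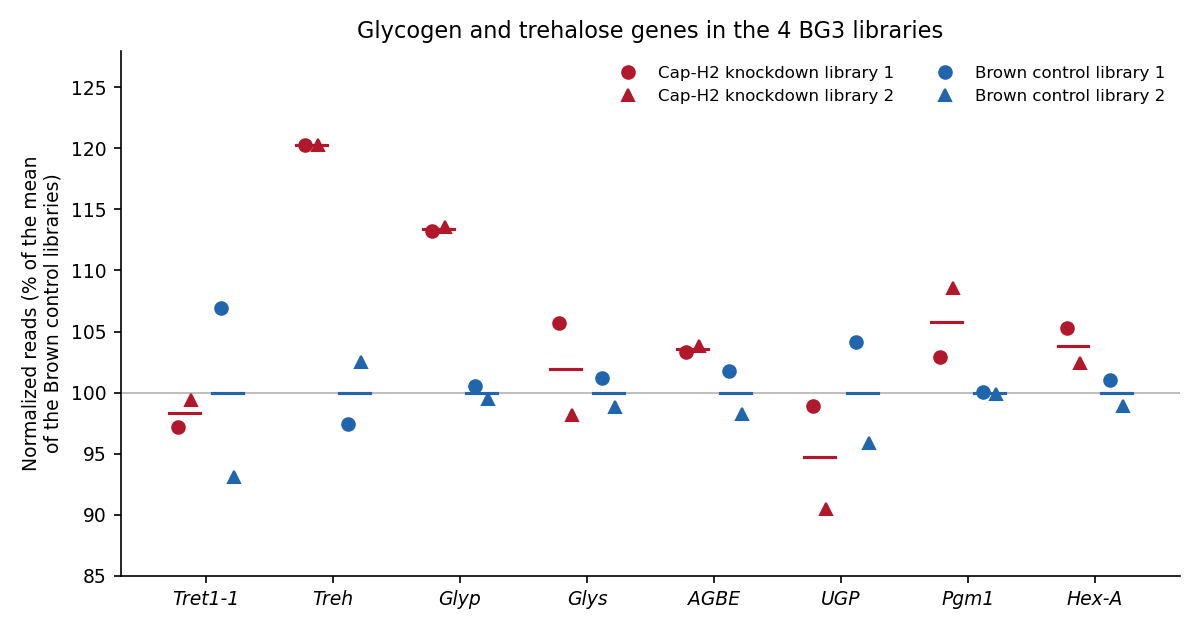
Normalized reads of the 8 measured genes in each library (y axis, percent of the mean of the 2 Brown control libraries); the circle is library 1, the triangle library 2 and the bar the group mean, with the knockdown to the left of the control. For Treh and Glyp the knockdown libraries lie together at 120% and 113% and apart from the control, while Tret1-1, Glys and UGP overlap.

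Treh (FBgn0003748, dm6 chromosome 2R, 21074018 to 21088945, plus strand, 7 annotated transcripts) is the trehalase gene. It had 2578 and 2577 normalized reads in the knockdown libraries, against 2088 and 2197 in the control libraries. The knockdown libraries were nearly equal and both lay above both control libraries, which differed from each other by 0.07 on the log2 scale. The means were 2577 ± 0.60 in the knockdown and 2142 ± 76.9 in the control (SD, n = 2 each), which is a difference of 0.27 on the log2 scale (SE 0.04, 95% interval 0.18 to 0.35, adjusted p = 0.0027 in limma over all rows). A log2 fold change at least this high was found in 316 of the 7690 tested rows. Treh had log2 fold changes between 0.23 without control library 1 and 0.30 without control library 2 when each library was left out in turn. Its adjusted p was 0.0022 in edgeR and 0.00072 in DESeq2. The authors' deposited table gives an adjusted p of 0.0044 and a smaller log2 fold change, 0.21.

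Of the exons of Treh, 560 of 4369 bp (12.8%) also lie in exons of Rbpn-5 on the opposite strand. The kit keeps strand, but no source used here says whether the counting did. Rbpn-5 had 855 and 829 normalized reads in the knockdown libraries, against 869 and 917 in the control libraries (log2 fold change -0.08, adjusted p = 0.75 in limma). Its values in the knockdown lay below those in the control, opposite in sign to Treh.

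Tret1-1 (FBgn0050035, chromosome 2R, 11665768 to 11674782, plus strand) encodes a facilitated transporter that carries trehalose across the cell membrane. It had 597 and 611 normalized reads in the knockdown libraries, against 657 and 572 in the control libraries. The control libraries enclosed both knockdown libraries. The log2 fold change was -0.02 (SE 0.07, adjusted p = 0.97 in limma), and the 95% interval ran from -11.6% to 9.80%, so a change as large as that of Treh lies outside it. With 572 to 668 reads a library, counting alone gives each value an error of 7.93% (95%, Poisson). Without control library 1 the value was 0.08, and without control library 2 it was -0.12.

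Glyp (FBgn0004507, chromosome 2L, 2130813 to 2137296, plus strand) encodes glycogen phosphorylase, which cuts glucose units from the ends of glycogen chains. It had 3952 and 3964 normalized reads in the knockdown libraries, against 3508 and 3471 in the control libraries. Both groups were tight and did not overlap, with differences of 0.00 between the knockdown libraries and -0.02 between the control libraries, library 2 minus library 1 on the log2 scale. The means were 3958 ± 8.45 in the knockdown and 3490 ± 26.0 in the control (SD, n = 2 each), which is a difference of 0.18 on the log2 scale (SE 0.03, 95% interval 0.11 to 0.25, adjusted p = 0.022 in limma). None of its exons shares bases with another annotated gene.

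The size of the Glyp difference was stable across the fits made here while its call was not. Without knockdown library 1 the log2 fold change was 0.18 and the adjusted p 0.060, and without knockdown library 2 they were 0.18 and 0.088. After quantile normalization, under which 0.143% of rows passed as higher, they were 0.17 and 0.15. The count models gave an adjusted p of 0.018 in edgeR and 0.010 in DESeq2. The authors' deposited table gives an adjusted p of 0.063, above the threshold at which 0.363% of its rows passed. Its log2 fold change for Glyp is smaller, at 0.12 (SE 0.075).

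Glys (FBgn0266064, chromosome 3R, 15141843 to 15147531, minus strand), glycogen synthase, adds glucose from UDP-glucose to the growing chain. It had 4078 and 3788 normalized reads in the knockdown libraries, against 3904 and 3811 in the control libraries. The knockdown libraries lay on either side of the control. The log2 fold change was 0.03 (SE 0.04, adjusted p = 0.90 in limma), with a 95% interval of -3.81% to 7.93%. It turned to -0.03 without knockdown library 1 and stood at 0.08 without knockdown library 2.

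AGBE (FBgn0053138, chromosome 2R, 13171401 to 13174796, plus strand), the branching enzyme that sets the branch points of glycogen, had 2350 and 2363 normalized reads in the knockdown libraries, against 2314 and 2236 in the control libraries. The groups did not overlap, but the step from the highest control library to the lowest knockdown library was smaller than the gap between the control libraries. The log2 fold change was 0.05 (SE 0.04, adjusted p = 0.79 in limma), with a 95% interval of -2.31% to 9.85%.

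Pgm1 (FBgn0003076, chromosome 3L, 16126018 to 16128531, minus strand), phosphoglucomutase, moves the phosphate of glucose between the positions used by glycolysis and by glycogen. It had 901 and 951 normalized reads in the knockdown libraries, against 877 and 875 in the control libraries. The groups did not overlap, and the spread lay within the knockdown. The log2 fold change was 0.08 (SE 0.06, adjusted p = 0.76 in limma), with a 95% interval of -2.68% to 14.8%. It ranged from 0.04 without knockdown library 2 to 0.12 without knockdown library 1.

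UGP (FBgn0035978, chromosome 3L, 9350867 to 9358935, minus strand) makes UDP-glucose, the building block shared by glycogen and by trehalose. It had 614 and 561 normalized reads in the knockdown libraries, against 646 and 595 in the control libraries. The groups overlapped, and library 2 minus library 1 was -0.13 in the knockdown and -0.12 in the control on the log2 scale. The log2 fold change was -0.08 (SE 0.07, adjusted p = 0.82 in limma), with a 95% interval of -14.8% to 5.23%. Of its exons 602 of 3013 bp (20.0%) also lie in PGRP-LF on the opposite strand, which had a mean of 40.3 normalized reads in the knockdown and 38.6 in the control.

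Hex-A (FBgn0001186, chromosome X, 9585675 to 9589813, plus strand), the hexokinase that traps glucose in the cell as a phosphate, had the most reads of the 8 genes. It had 8975 and 8727 normalized reads in the knockdown libraries, against 8614 and 8432 in the control libraries. The knockdown libraries lay above the control by a margin smaller than the gap between the libraries of either group. The log2 fold change was 0.05 (SE 0.03, adjusted p = 0.68 in limma), with a 95% interval of -0.73% to 8.64%. Hex-A had 8429 to 9001 reads a library, at which counting gives an error of 2.10%.

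In 5 of the 8 genes (Treh, Glyp, AGBE, Pgm1 and Hex-A) both knockdown libraries exceeded both control libraries, and in 0 were both below. Among all tested rows 19.2% had the knockdown above and 19.5% had it below. The median log2 fold change of the 8 was 0.05, against 0.00 over all tested rows (-0.00014), and 6 of the 8 were positive against 49.9% of all rows. These shares rest on the same comparison that was known when the genes were listed.

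**Figure D2:**
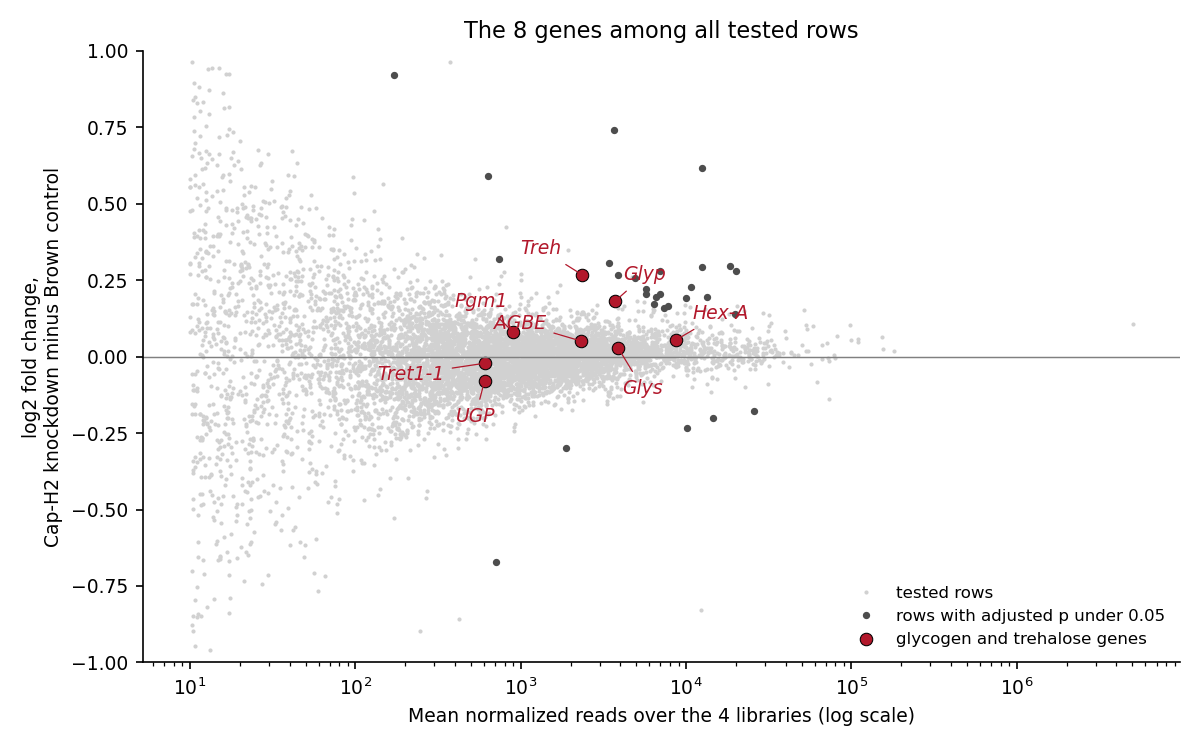
Log2 fold change, Cap-H2 knockdown minus Brown control (y axis), against the mean normalized reads over the 4 libraries (x axis, log scale) for all 7690 tested rows, with the 8 genes in red and rows with an adjusted p under 0.05 in dark grey; 24 rows beyond ±1 are not drawn. Treh at 0.27 and Glyp at 0.18 lie at the edge of the cloud at their level, and the other 6 lie inside it.

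The summed RNA of the 8 genes was 24046 and 23542 normalized reads in the knockdown libraries, against 22609 and 22189 in the control libraries. The knockdown mean was 106% of the control mean. Without Treh and Glyp the sums were 17517 and 17002 in the knockdown libraries, against 17013 and 16521 in the control libraries, and the groups overlapped. The knockdown mean of these sums was 103% of the control mean. Most of the summed difference lay in Treh and Glyp, which were known to be higher before they were taken out. Hex-A made up 37.3% and 37.1% of the sum in the knockdown libraries, against 38.1% and 38.0% in the control libraries.

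Per kilobase of exon, the 8 genes spanned a range of 11.6-fold. The order over the 4 libraries was Hex-A, Glyp, Glys, AGBE, Treh, Pgm1, UGP and Tret1-1. Hex-A had 2139 ± 42.4 normalized reads per kb in the knockdown and 2059 ± 31.1 in the control (SD, n = 2 each), above 93.3% of tested rows with a known length. The genes that store and release glycogen came next at similar levels. Glyp had 1259 ± 2.69 per kb in the knockdown and 1110 ± 8.28 in the control, Glys 1178 ± 61.5 and 1155 ± 19.7, and AGBE 1015 ± 3.74 and 980 ± 23.9, in the same order of groups (SD, n = 2 each).

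The trehalose genes were expressed at lower levels than the glycogen genes. Treh had 590 ± 0.137 normalized reads per kb in the knockdown and 490 ± 17.6 in the control. Tret1-1 had the lowest level of the 8, 179 ± 2.91 per kb in the knockdown and 182 ± 17.8 in the control, above 33.0% of tested rows. Pgm1 had 503 ± 19.1 per kb in the knockdown and 475 ± 0.557 in the control, and UGP 195 ± 12.4 in the knockdown and 206 ± 12.0 in the control (SD, n = 2 each). Thus the 6 highest genes stood above the median of tested rows, 318 per kb, and UGP and Tret1-1 below it. Neighbours in this order whose libraries overlapped were Glyp and Glys, Treh and Pgm1, and UGP and Tret1-1, so their order is not fixed by these data.

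**Figure D3:**
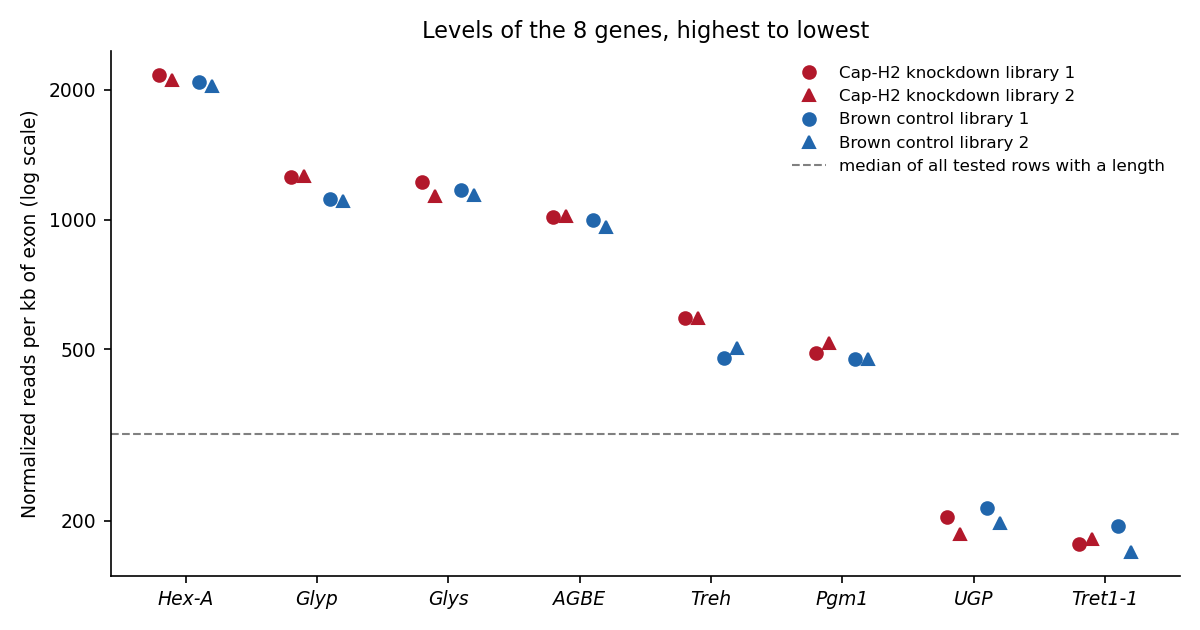
Normalized reads per kilobase of exon (y axis, log scale) of the 8 genes in each library, from the highest to the lowest, with the knockdown to the left of the control; the dashed line is the median of tested rows with a length, 318. Hex-A stands alone between 2037 and 2168, the glycogen genes lie between 963 and 1261, and UGP and Tret1-1 lie below the line.

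Glyp was also set against Glys on this per-kilobase scale. The level of Glyp over that of Glys was 1.03 and 1.11 in the knockdown libraries, against 0.954 and 0.968 in the control libraries. The ratio was above 1 in each knockdown library and below 1 in each control library. Which side of 1 a library lay on depended on the length used: with the longest transcript as length, a choice made after seeing the data, the ratio was 0.964 and 1.04 in the knockdown libraries, against 0.894 and 0.906 in the control libraries. The knockdown lay above the control with either length. The larger value of the knockdown came from library 2, in which Glys was lower. The level of Treh over that of Tret1-1 was 3.33 and 3.26 in the knockdown libraries, against 2.45 and 2.97 in the control libraries. Between the control libraries Tret1-1 differed by -0.20 and Treh by 0.07 on the log2 scale, library 2 minus library 1. Both ratios rest on the comparison that was known when the genes were listed, so they are given as a description, with no test.

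For the genes that passed, the rows with the most similar values were sought, by the Euclidean distance of log2 values centred on their own mean over the 4 libraries. The closest to Treh were Pgi, the glycolytic isomerase (distance 0.034, log2 fold change 0.26), MFS3, a transporter gene (0.037, 0.28), and CG1703 (0.039, 0.27). Each of these also passed limma's threshold, as 0.39% of all tested rows did, but they were matched to Treh on the same values that the test used. The closest to Glyp were asRNA:CR45182 (distance 0.019, log2 fold change 0.19), RhoGAP71E (0.027, 0.16) and por (0.027, 0.16), of which RhoGAP71E passed. With 4 libraries many rows can match a profile, and asRNA:CR45182 rests on 50 to 57 reads a library.

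Further genes of the same pathways were taken in 6 lists of 55 genes, of which 43 had a row and 42 were tested. The symbol Glyg, in the glycogen list, matched no annotated gene, so its lack of a row may be a matter of naming. Sugar uptake and trehalose genes beside the members were scarce, with 4 of 10 measured and 0 past the threshold in limma or in edgeR. In limma 2 of the 4, sut1 and Tret1-2, had an unadjusted p under 0.05, both lower in the knockdown, against 8.13% of all tested rows. DESeq2 gave none of the 4 an adjusted p. The median of the 4 was -0.01. Tret1-2, the paralog next to Tret1-1, had 8.97 and 12.2 normalized reads in the knockdown libraries, against 18.7 and 26.0 in the control libraries (log2 fold change -1.01, SE 0.39, adjusted p = 0.52). Its groups did not overlap, at levels far below those of Tret1-1. The sugar transporter genes sut1 and Glut1 differed by -0.21 (SE 0.07, adjusted p = 0.38 in limma) and 0.44 (SE 0.25, adjusted p = 0.68) on the log2 scale, with means of 465 and 54.9 in the knockdown and 538 and 41.1 in the control.

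Of the other glycogen and hexose phosphate genes, 2 of 8 were tested and 0 passed in limma, at an unadjusted p under 0.05, or in edgeR, and 0 of the 1 that DESeq2 gave an adjusted p. The glycogen debranching enzyme gene CG9485 had 1636 ± 102 normalized reads in the knockdown and 1557 ± 17.7 in the control (SD, n = 2 each, log2 fold change 0.07, adjusted p = 0.76 in limma). Pgm2a, a relative of Pgm1, had 2411 ± 8.41 in the knockdown and 2534 ± 187 in the control (SD, n = 2 each, log2 fold change -0.07, adjusted p = 0.73). The debranching enzyme works with glycogen phosphorylase to take glycogen apart, and the groups overlapped for its gene.

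The 10 genes listed for the control of glycogen enzymes were all measured. Of these 10 genes 0 passed limma's threshold (2 at an unadjusted p under 0.05, against 8.13% of all tested rows), 0 passed in edgeR and 0 of the 5 that DESeq2 gave an adjusted p. A positive log2 fold change was found in 8 of the 10, against 49.9% of all tested rows, and the median was 0.04. The most abundant was Gbs-70E, which brings protein phosphatase to glycogen, with 16614 and 17609 normalized reads in the knockdown libraries, against 15030 and 16400 in the control libraries. Its log2 fold change was 0.12 (SE 0.04, adjusted p = 0.28), and that of its relative Gbs-76A was 0.14 (SE 0.05, adjusted p = 0.43). PhKgamma, the catalytic subunit of phosphorylase kinase, which activates glycogen phosphorylase, had 0.09 (SE 0.04, adjusted p = 0.65). In 4 of the 10 genes, these 3 among them, both knockdown libraries lay above both control libraries, and in 1, alc, both lay below, against 19.2% and 19.5% of all tested rows.

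Genes that draw on UDP-glucose, galactose and hexosamines and the sugar-responsive transcription factors showed no call, with 0 of 8 and 0 of 7 tested genes past limma's threshold and medians of -0.04 and 0.01. The counts were also 0 at an unadjusted p under 0.05 and in edgeR, and 0 of the 1 and 0 of the 2 genes that DESeq2 gave an adjusted p. Galk, galactokinase, had a log2 fold change of -0.14 (SE 0.07), sgl, UDP-glucose dehydrogenase, of -0.10 (SE 0.06), and Uggt, a UDP-glucose:glycoprotein glucosyltransferase, of 0.06 (SE 0.04), with adjusted p from 0.65 to 0.69. Among the factors, foxo, which acts when insulin signalling is low, had 0.09 (SE 0.05), sima, the hypoxia factor, 0.04 (SE 0.04), and sug, a sugar-responsive factor, -0.40 (SE 0.37) at a mean of 17.1 normalized reads in the knockdown and 23.9 in the control (adjusted p from 0.65 to 0.82). The libraries of sug held 17 to 31 reads, and its 95% interval ran from -55.5% to 29.9%. The glycolytic enzymes after hexose phosphorylation were the list with calls: 6 of 11 passed as higher, against 0.325% of all tested rows, and all 11 values were positive, against 49.9%, from 0.03 to 0.28 with a median of 0.16. That list too was drawn up with those calls known.

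**Figure D4:**
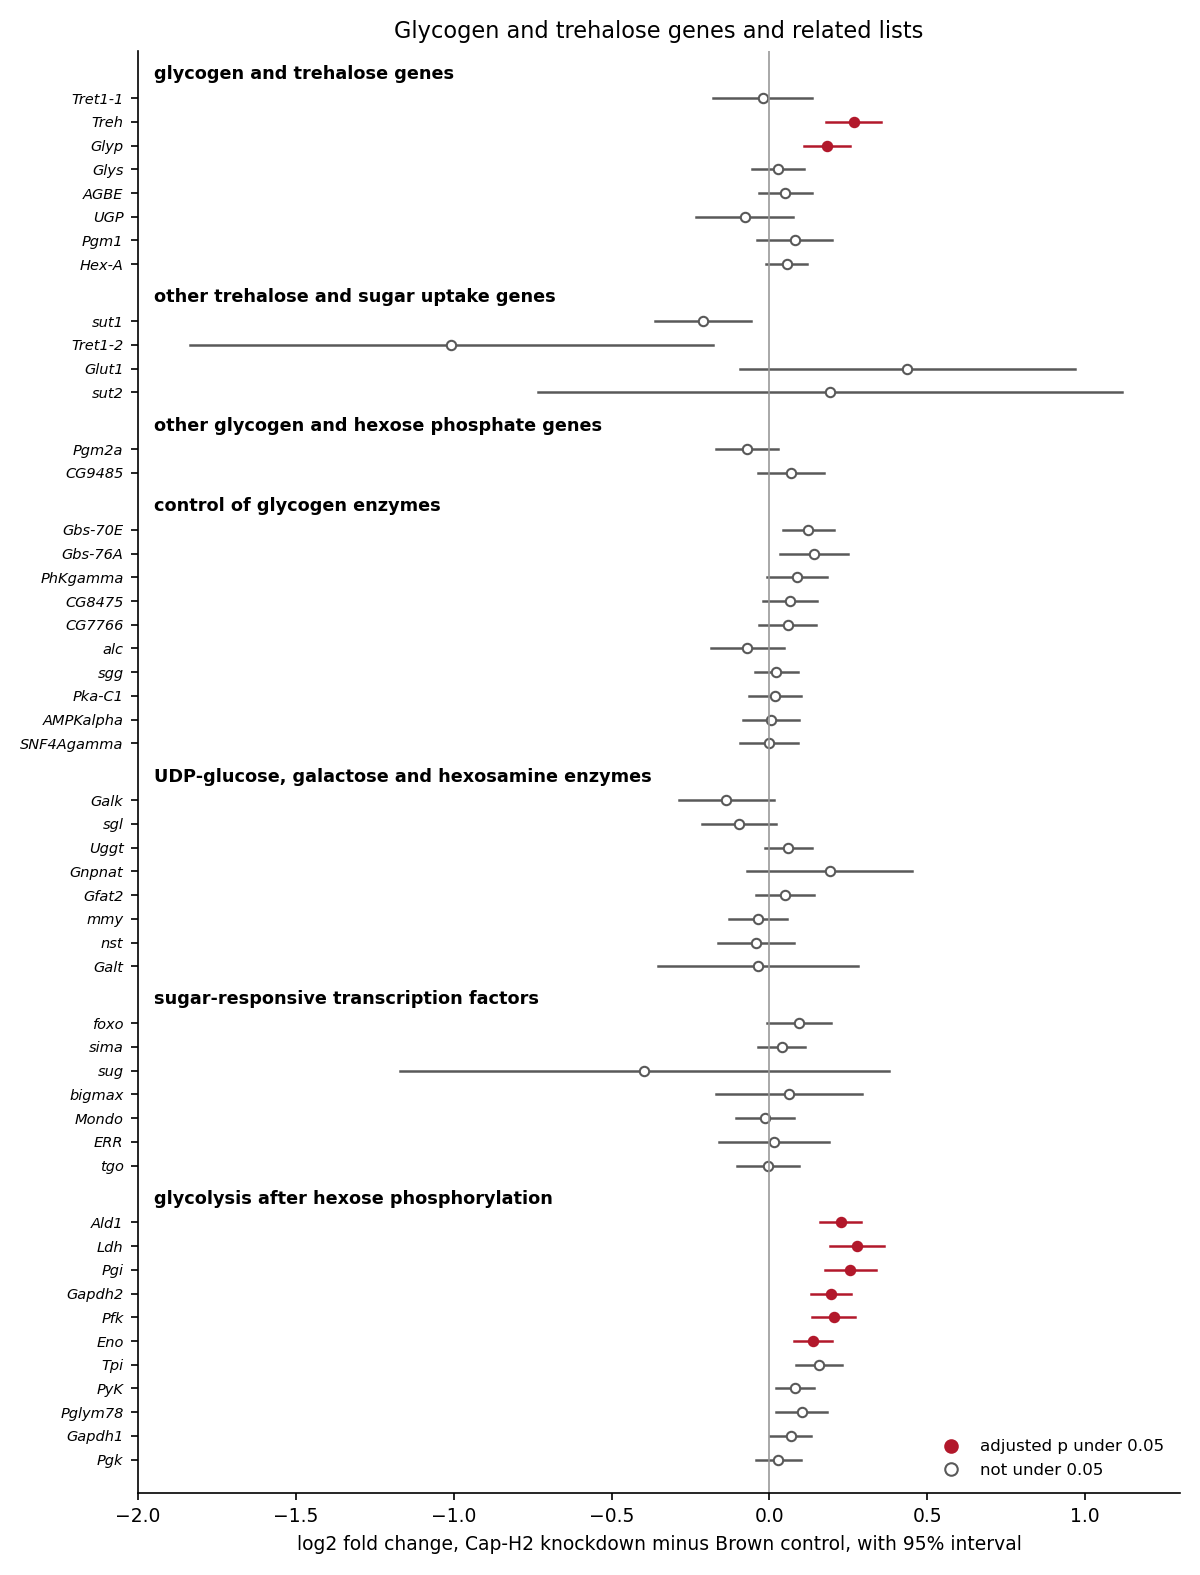
Log2 fold change, Cap-H2 knockdown minus Brown control, with its 95% interval from limma (x axis) for the 8 genes and the 42 tested genes of 6 related lists; filled red points passed an adjusted p of 0.05 over all 7690 rows. The red points are Treh, Glyp and 6 glycolytic genes, and the wide intervals belong to genes with few reads such as Tret1-2 and sug.

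**Figure D5:**
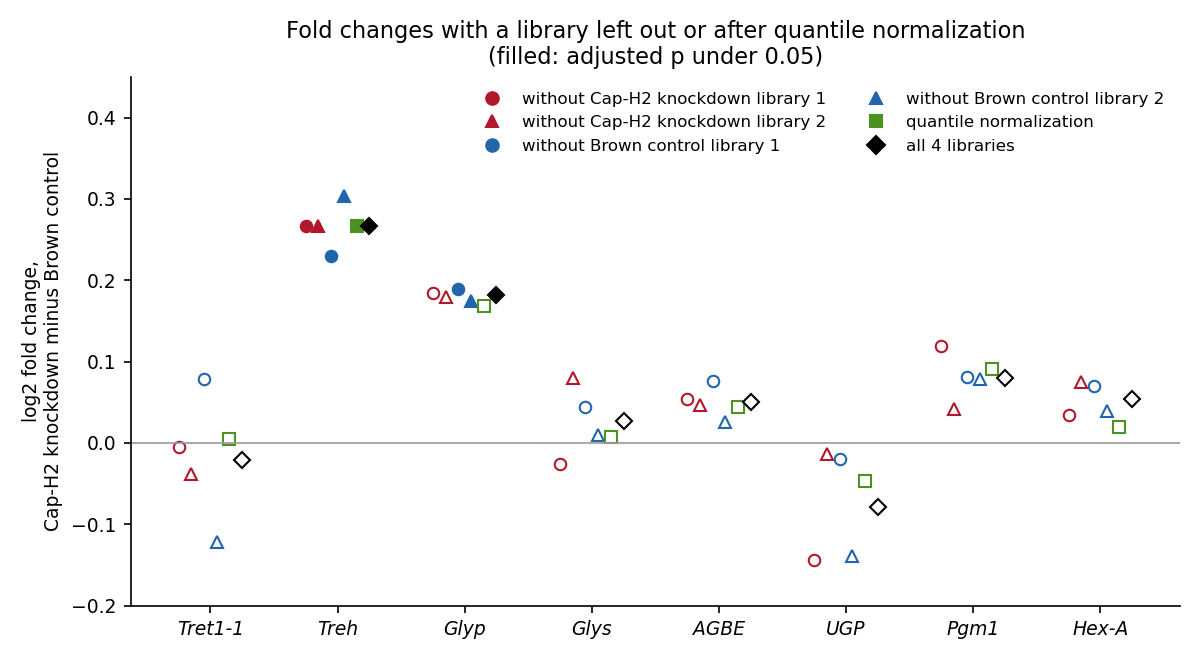
Log2 fold change, Cap-H2 knockdown minus Brown control (y axis), of each gene with all 4 libraries, with each library left out and after quantile normalization; filled symbols passed an adjusted p of 0.05. Treh is filled throughout, Glyp keeps its size between 0.17 and 0.19 but is open in 3 of the settings shown, and Tret1-1 and Glys cross 0.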

How the data were processed

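The authors deposited a table of normalized read counts, a signal made of reads divided by 1 size factor per library, for 4 libraries. The submitters' processing notes name fastp, HISAT2, HTSeq and dm6; no source used here gives the annotation, the strand setting or the tool behind the size factors. Dividing by the smallest step gave whole reads for 100% of values (tolerance 0.001). Rows of HTSeq that name no gene, 11.5% to 13.9% of reads, were left out. The authors' deposited table of log2 fold changes, p-values and adjusted p-values was quoted as theirs only; its fold changes lie much nearer 0 for most genes (0.00088 for AGBE).

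Log2 of the normalized count plus 1 was fitted with limma 3.58.1 (R 4.3.3, mean trend, two-sided, Benjamini-Hochberg over the 7690 rows averaging 10 or more; 2 residual and 14.4 prior degrees of freedom), so folds of low genes are understated. Scripts were tested on simulated data whose changes were larger than those of Treh and Glyp, so that test does not cover changes of their size. Alternatives included edgeR 4.0.16 and DESeq2 1.42.0 on the whole reads, though DESeq2 left 6112 rows without an adjusted p. Every pair of libraries differed beyond sampling noise (chi-square per degree of freedom 2.96 to 7.95). Intervals for counting cover counting error only. Positions and exonic lengths come from Ensembl BDGP6.54, in dm6 coordinates. No sequence was used here, so the planned search of promoters for motifs was not made.

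All members are named, with the 3 genes of smallest p in each related list (glycolysis by counts and range) and the 3 rows most like each called member. Members and lists were chosen with earlier results of these data known. A gene of the related lists is not reported here.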

Additional observations from a re-analysis of the deposited data

How the results depend on the processing

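Across 15 alternatives, Treh stayed past the threshold (log2 fold change 0.23 to 0.30, adjusted p at most 0.043), and AGBE, Pgm1, Hex-A and UGP kept their sign without passing. Glyp did not pass in 3 of them. Of the 8 genes, 1 passed after quantile normalization, and related genes past the threshold then numbered 2, against 6. In every fit with a library left out, more rows passed over all than with all 4 libraries. Tret1-1 changed sign after quantile normalization (0.0046) and, with a library left out, ranged from -0.12 (without control library 2) to 0.078 (without control library 1); Glys ranged from -0.026 (without knockdown library 1) to 0.080 (without knockdown library 2). The cause was not tested. With the longest transcript as length, the control level per kb was 639 for Treh, 1233 for Glys, which then stood above Glyp, and 231 for UGP; exons outside the longest transcript drop out of that length.

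Over all rows 30 passed, against 14 after quantile normalization and 59 with robust empirical Bayes. The p-values rest mostly on limma's prior, with all 4 libraries (14.4 prior against 2 residual degrees of freedom) as well as with a library left out. Libraries share only a replicate number (correlation of deviations -0.03): with the replicate block 146 rows passed, 2 of the members and 8 related genes. DESeq2 gave no adjusted p for 6112 rows, Pgm1, Tret1-1 and UGP among them. Depth limits UGP and Tret1-1 most, with a counting error near 8% per library (7.97% and 7.93%).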
